A study of Homo sapiens with 12 samples.

Results

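The comparison described here is the difference between 2 cell lines in their response to 1 drug. Its members are all libraries of the study, 12 of 12, in 4 groups of 3. SK-N-BE2 and NGP are established human neuroblastoma lines with amplified MYCN, labelled as wild type. SK-N-BE2 was kept for 6 days with STM2457 at 12 µM or with the solvent DMSO, and NGP for 6 days with STM2457 at 1 µM or with DMSO. For each gene the response in NGP (STM2457 against DMSO) was subtracted from the response in SK-N-BE2, so a positive difference is a more positive response in SK-N-BE2. Dose and sequencing run went with the line: each line had its own dose and its own run. Line, dose and run therefore cannot be told apart, and "line" below stands for all 3. The labels do not say whether replicates are separate cultures, so p-values measure the spread between these samples, which may be technical.

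STM2457 is a small molecule inhibitor of METTL3, which places the m6A mark (N6-methyladenosine) on messenger RNA. The mark is read by proteins that change how long an RNA lasts, how it is spliced and how well it is translated. Neuroblastoma arises from the sympathetic lineage of the neural crest, and its lines keep parts of the noradrenaline-producing, neuronal and mesenchymal programmes of that lineage in different mixtures. Polyadenylated RNA was sequenced, so what follows is about RNA levels and not about methylation, protein or METTL3 activity.

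The libraries held between 47242379 and 58159937 counted reads. Levels are in CPM, the rate of a gene's counts in a library after scaling for library composition. One library lay away from its group, NGP DMSO replicate 1: the biological coefficient of variation in NGP was 0.155 with it and 0.0944 without it, against 0.107 in SK-N-BE2. In each group 6 of 7 markers of adrenergic neuroblastoma averaged above 1 CPM. TH, the first enzyme of noradrenaline synthesis, was below 1 CPM in NGP. The summed level of 9 Schwann and glial markers lay between 3.41 and 7.54 CPM over all libraries, and that of 10 blood markers between 5.89 and 9.14 CPM. The 10 fibroblast markers summed to between 450.3 and 485 CPM with DMSO and between 604 and 659 CPM under STM2457 in SK-N-BE2, and to between 261 and 277 CPM and between 518 and 584 CPM in NGP. Of these, PDPN was at 0 reads in all groups and FAP at 0 reads in both NGP groups. The part of other cells in the matrix genes below was not tested, and in bulk RNA fewer cells of a type and less RNA per cell cannot be told apart.

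Promoters are shown for 2 genes that recur below, because these genes stand for the patterns that opposed and that shared a direction between the lines. EGR1, a transcription factor induced within minutes by growth signals, moved in opposite directions. CHAC1, an enzyme that degrades glutathione under amino acid stress, fell in both lines by unequal amounts. Each sequence is the 250 bases before the RefSeq start of the gene (GRCh38.p14, plus strand), 5′ to 3′. In EGR1 (chr5:138465229-138465478) the capitals mark 2 CArG boxes, the binding motif of serum response factor, beginning 105 and 83 bases before the start. In CHAC1 (chr15:40953221-40953470) they mark 1 match to the CCAAT-enhancer ATF element, searched as TGATGNAA on both strands and beginning 209 bases before the start.
EGR1: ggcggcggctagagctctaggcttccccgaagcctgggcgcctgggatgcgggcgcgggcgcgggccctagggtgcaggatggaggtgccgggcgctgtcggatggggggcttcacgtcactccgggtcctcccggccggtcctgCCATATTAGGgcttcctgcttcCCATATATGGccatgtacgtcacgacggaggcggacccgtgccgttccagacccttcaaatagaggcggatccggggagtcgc
CHAC1: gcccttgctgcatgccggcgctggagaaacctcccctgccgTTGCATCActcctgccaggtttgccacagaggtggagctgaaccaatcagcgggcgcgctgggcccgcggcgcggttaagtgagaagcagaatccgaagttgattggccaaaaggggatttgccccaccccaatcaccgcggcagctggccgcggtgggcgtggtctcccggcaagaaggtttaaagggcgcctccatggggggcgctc

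The windows were searched for 8 motifs, and the 2 shown were chosen after the matches were seen. A window of 300 bases, from 250 before to 50 after the start, was available for 11626 of the 14731 genes tested. The other 6 motifs were the cyclic AMP response element (TGACGTCA), the AP-1 site (TGANTCA), the antioxidant response element (TGACNNNGC), the E-box (CACGTG), the heat shock element (GAANNTTC) and the interferon-stimulated response element (named only). A CArG box stood in 1.04% of all windows, the ATF element in 1.82%, and the other 6 in 3.12%, 4.73%, 14.6%, 9.83%, 4.60% and 2.77%, in the order just given. Of the 19 windows of the immediate early list, 2 held a CArG box and 1 the ATF element, and 2, 1, 3, 3, 2 and 1 held the other 6. Of the 25 windows of ATF4 and CHOP targets, 0 held a CArG box and 5 the ATF element, and 1, 4, 7, 2, 1 and 1 held the other 6. In the immediate early list the cyclic AMP, antioxidant, E-box and heat shock motifs thus matched as often as the CArG box, or more often. In the ATF4 and CHOP list only the antioxidant element matched more often than the ATF element. Their shares there were 28.0% and 20.0%, against 14.6% and 1.82% of all windows. These shares were not tested. Among genes that fell in SK-N-BE2 and rose in NGP, 4 of 243 windows (1.65%) held a CArG box and 1.23% the ATF element, and among genes that did the reverse 1 of 310 (0.323%) and 1.61%. For the antioxidant element these shares were 16.9% and 10.6%, for the heat shock element 7.0% and 4.19%, and for the E-box 9.47% and 8.39%. A match is a description of letters and not a site that was shown to be used. The AP-1 and ATF element searches can mark overlapping bases.

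A difference in response was called for 4549 of 14731 genes (30.9% called, edgeR quasi-likelihood test with a Benjamini-Hochberg adjusted p under 0.05). The response was more positive in SK-N-BE2 for 2503 of them (17.0%) and more positive in NGP for 2046 (13.9%), a balance that turned with upper-quartile scaling, to 2176 and 2458. In the same fit 6572 genes changed in SK-N-BE2 (44.6% called), 3540 up and 3032 down, and 6782 changed in NGP (46.0% called), 3394 up and 3388 down. The genes with a called difference fell into 5 classes. Those called in opposite directions numbered 721 (4.89% of genes tested), those called in SK-N-BE2 and not in NGP 1377 (9.35%), and those called in NGP and not in SK-N-BE2 1626 (11.0%). A further 701 (4.76%) moved the same way in both lines by unequal amounts, and 124 (0.842%) had a called difference with neither response called. No difference was called for the remaining 10182 genes (69.1%). Without NGP DMSO replicate 1 the number of called differences rose to 6274 and that of opposite genes to 1145. With responses fitted for each line on its own, 1669 genes were SK-N-BE2-only and 1336 NGP-only, so the order of these 2 classes turned.

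**Figure D1:**
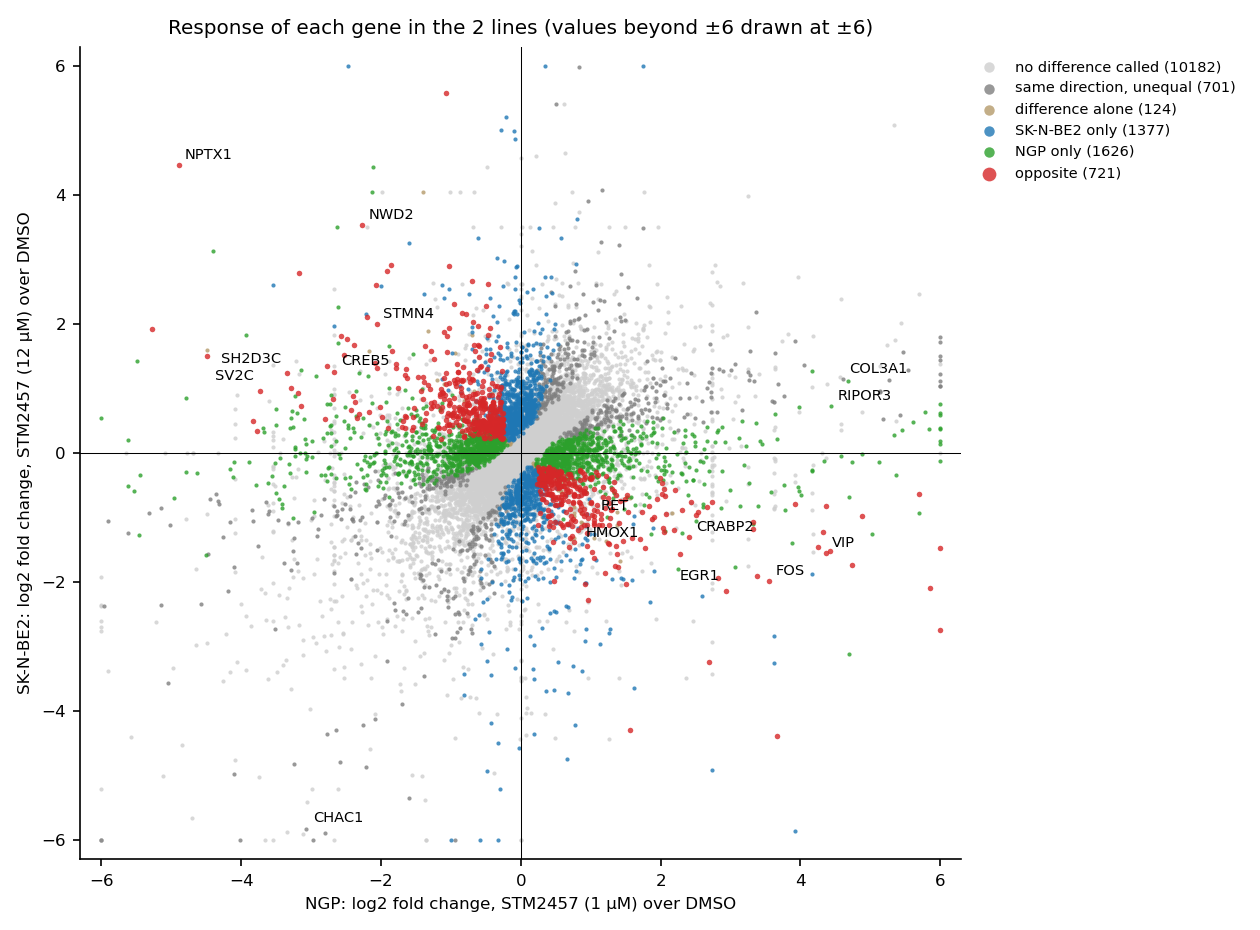
Response of each of 14731 genes to STM2457 in NGP (x axis) and SK-N-BE2 (y axis), as log2 fold change over DMSO, with values beyond ±6 drawn at ±6. Colours mark the classes: the 721 opposite genes lie in the upper left and lower right, while NGP-only and SK-N-BE2-only genes follow the horizontal and vertical lines through 0.

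The 721 genes with opposite responses divided into 411 that rose in SK-N-BE2 and fell in NGP and 310 that did the reverse (343 and 381 with upper-quartile scaling), with a median absolute difference of 1.34 on the log2 scale. Named examples are those with the largest smaller response among genes reaching a mean of 10 CPM in some group and without overlap between treated and control libraries in either line. The size was modest for most: with an absolute log2 change of at least 1 required in each contrast, 90 remained.

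Among genes that fell in SK-N-BE2 and rose in NGP, the immediate early transcription factors EGR1 and FOS came first. EGR1 (chromosome 5, 138465479 to 138469303, GRCh38) measured 473, 416 and 459 CPM in the SK-N-BE2 DMSO libraries and 98.3, 106 and 103 CPM with STM2457. In NGP it measured 8.001, 12.8 and 3.79 CPM with DMSO and 77.2, 62.2 and 49.3 CPM with STM2457. The groups did not overlap in either line, and the treated libraries of both lines came to lie within the span between the 2 controls. Its log2 fold change was -2.13 (SE 0.28) in SK-N-BE2 and 2.94 (SE 0.30) in NGP, so the difference was -5.07 (SE 0.41, edgeR adjusted p 1.31e-06). FOS (chromosome 14, 75278826 to 75282230), a subunit of AP-1, measured 67.7, 71.7 and 78.1 CPM with DMSO and 17.1, 19.6 and 18.2 CPM under STM2457 in SK-N-BE2. In NGP its libraries held 1.63, 3.25 and 1.13 CPM and 30.4, 19.9 and 20.4 CPM. The treated groups of the 2 lines lay next to each other, while the controls differed by a log2 gap of 5.18. The FOS difference was -5.54 (SE 0.37, edgeR adjusted p 3.28e-07). ZFP36, which promotes decay of short-lived messenger RNAs, went from 10.98 ± 0.518 to 4.78 ± 0.408 CPM in SK-N-BE2 and from 0.339 ± 0.136 to 1.57 ± 0.0891 CPM in NGP (SD, n = 3).

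CRABP2 (chromosome 1, 156699606 to 156705816), which carries retinoic acid to its nuclear receptors, held 203, 199.99 and 225 CPM with DMSO and 90.0, 76.1 and 88.2 CPM under STM2457 in SK-N-BE2. In NGP it held 13.1, 7.75 and 9.16 CPM and 60.8, 47.2 and 51.8 CPM. All treated libraries were thus lower than controls in one line and higher in the other, with a difference of -3.72 (SE 0.23, edgeR adjusted p 1.42e-07). HES1, a repressor downstream of Notch, moved by -1.42 in SK-N-BE2 and 1.27 in NGP on the log2 scale. TXNIP, an inhibitor of thioredoxin and of glucose uptake, moved by -1.39 and 1.25. VIP, which encodes a neuropeptide, moved by -1.56 and 4.37, and RHOF, a small GTPase of filopodia, by -1.12 and 1.17. The last 2 are uncertain, since genes on the other strand overlap 20.6% of the VIP exons and 71.0% of the RHOF exons and the counting did not use strand.

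Genes of the reverse orientation included NPTX1, STMN4 and GAD1. NPTX1 (chromosome 17, 80466834 to 80477843), a secreted pentraxin that clusters glutamate receptors at synapses, measured 0.245, 0.201 and 0.344 CPM with DMSO and 6.22, 5.18 and 6.22 CPM under STM2457 in SK-N-BE2. In NGP the values were 56.4, 52.97 and 62.0 CPM and 2.35, 1.93 and 1.499 CPM. The line with the higher level was NGP under DMSO and SK-N-BE2 under STM2457. STMN4, a neuronal regulator of microtubules, rose from 13.2, 16.0 and 15.1 CPM to 58.6, 56.0 and 62.7 CPM in SK-N-BE2. It fell from 2.82, 2.09 and 1.98 CPM to 0.897, 0.193 and 0.552 CPM in NGP, so that the line already higher in DMSO moved further up. The STMN4 difference was 4.06 (SE 0.37, edgeR adjusted p 3.77e-06). GAD1, which makes the transmitter GABA, moved by 1.52 in SK-N-BE2 and -2.53 in NGP on the log2 scale. NTNG1, a membrane-anchored netrin, moved by 1.30 and -1.64.

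CREB5 (chromosome 7, 28299321 to 28825894), a transcription factor of the cyclic AMP response family, measured 13.8, 10.6 and 13.5 CPM with DMSO and 29.3, 30.7 and 31.1 CPM under STM2457 in SK-N-BE2. The NGP libraries held 5.64, 10.7 and 8.89 CPM and 1.30, 1.58 and 1.08 CPM. The controls of the lines met at their edges, at a log2 gap of 0.59, and the treated libraries lay 4.52 apart. SH2D3C, an adaptor of integrin and receptor signalling, went from a gap of 0.23 to one of 4.81 and OLFM2, an olfactomedin, from -0.20 to 2.65. NWD2 rose in SK-N-BE2 from 0.0699, 0 and 0.0765 CPM to 0.591, 0.859 and 0.381 CPM, levels below 1 CPM, while it fell in NGP from 16.8, 31.6 and 27.2 CPM to 6.07, 5.11 and 4.48 CPM.

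**Figure D2:**
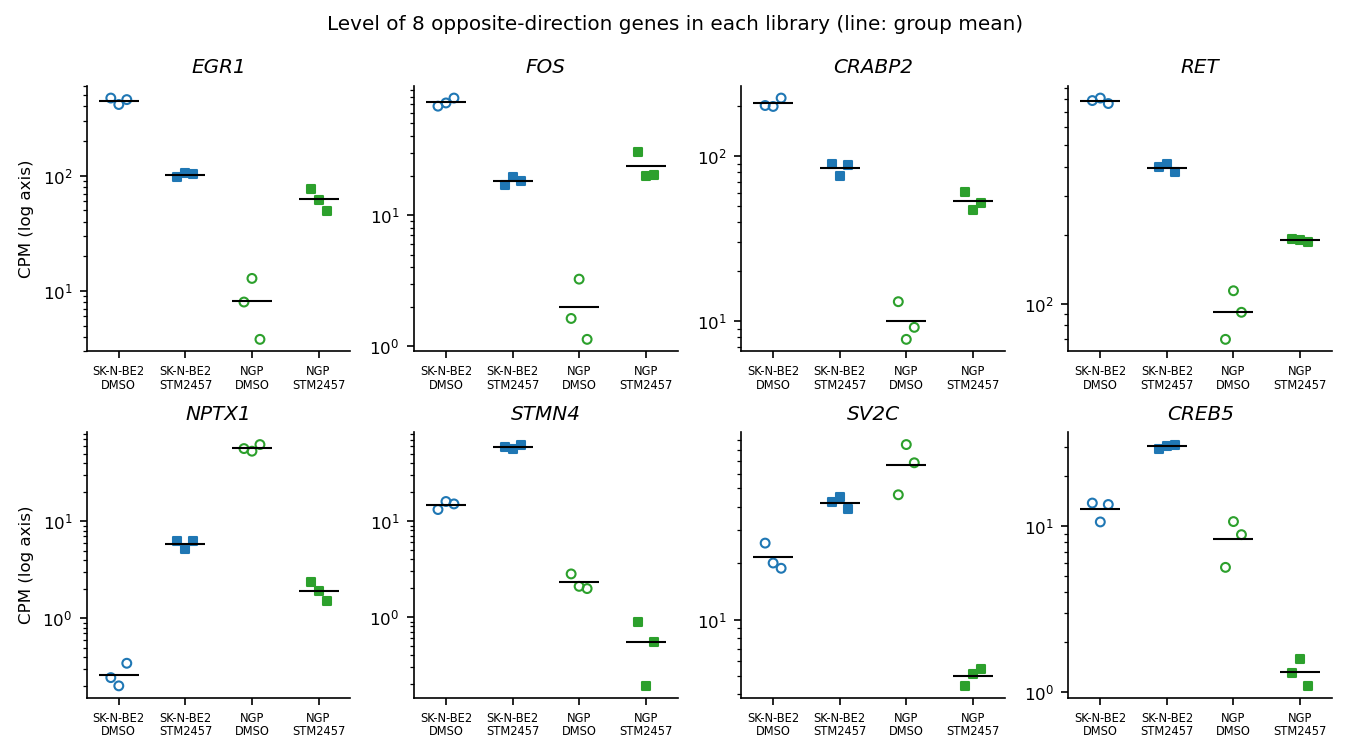
Level of 8 genes with opposite responses in each of the 12 libraries, in CPM on a log axis whose range differs between panels; open circles are DMSO, filled squares STM2457, and the line is the mean of 3 libraries. In the upper row SK-N-BE2 fell and NGP rose, and in the lower row SK-N-BE2 rose and NGP fell.

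Responses called in 1 line only included some of genes nearly silent in the other. The share of all genes tested under 1 CPM in a line was not counted, so the shares given here have no reference. Of the 1377 genes of the SK-N-BE2-only class, 785 rose and 592 fell there, and 131 (9.51%) were under 1 CPM in both NGP groups. PEX5L, which binds pacemaker channels, fell in SK-N-BE2 from 9.44, 7.95 and 8.28 CPM to 0.332, 0.449 and 0.628 CPM. In NGP it measured 44.5, 80.6 and 72.1 CPM with DMSO and 49.0, 49.8 and 48.5 CPM with STM2457, and the groups overlapped there. SEMA5B, a semaphorin of axon guidance, moved by -2.77 in SK-N-BE2 (edgeR adjusted p 4.77e-08) and -0.46 in NGP (edgeR adjusted p 0.0654). ALPK1, a kinase that senses bacterial sugars, moved by -2.71 and 0.30. GABRB2, a GABA receptor subunit, had 0 reads in SK-N-BE2 with DMSO and 12 with STM2457, at least 4.03-fold higher against a floor of 3 reads over the group, while its NGP libraries held 11.9, 17.9 and 19.4 CPM with DMSO. Since both reads of a pair could be counted, such lower bounds may be too high by up to 2 times. GABRB2 met the naming rule of 10 CPM in some group only through NGP, and its SK-N-BE2 group means were at most 0.0757 CPM.

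The NGP-only class held 1626 genes, 745 up and 881 down in NGP, of which 143 (8.79%) were under 1 CPM in both SK-N-BE2 groups. RIPOR3 rose in NGP from 1.25, 1.25 and 1.13 CPM to 35.2, 17.8 and 26.1 CPM. In SK-N-BE2 it measured 0.350, 0.403 and 0.382 CPM and 0.628, 0.566 and 0.685 CPM, a change that was not called (edgeR adjusted p 0.0624). IFI16, a sensor of DNA in the interferon system, had 0 reads in NGP with DMSO and 77 with STM2457, at least 27.2-fold higher, while it measured 90.0, 88.4 and 88.6 CPM and 96.0, 101 and 97.8 CPM in SK-N-BE2. DNAH14, an axonemal dynein, went from 0 to 26 reads in NGP, which is at least 9.19-fold higher, and FAM124B from 0 to 12 (at least 4.24-fold higher). GABARAPL1, an autophagy protein, went from 18 reads to 0 in NGP (at least 5.66-fold lower). IFI16, DNAH14, FAM124B and GABARAPL1 met the naming rule of 10 CPM in some group only through SK-N-BE2. In NGP, the line with the called response, their group means were at most 0.533, 0.181, 0.0822 and 0.118 CPM. DLL4, a Notch ligand, fell in NGP from 11.04, 9.74 and 10.2 CPM to 0.406, 0.535 and 0.414 CPM. Its difference of 2.92 (edgeR adjusted p 0.0476) rests on few reads in SK-N-BE2 and had the value -2.66 without SK-N-BE2 STM2457 replicate 2, with no call (adjusted p 0.217). It kept its call only without SK-N-BE2 STM2457 replicate 1, SK-N-BE2 STM2457 replicate 3 or NGP DMSO replicate 1.

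Gene lists were then read by their counts and medians. Over all 14731 genes the median difference was 0.02, the median response was 0.01 for SK-N-BE2 and 0.00 for NGP, and 30.9% had a called difference. The lists were chosen with earlier results of these data known, so their directions are not independent evidence. Counts "called for the difference" refer to the test of the difference itself. The share called was 37.0% for the interferon list and 38.1% for YAP and TEAD targets. It was 40.0% each for the catecholamine, voltage-gated channel and splicing factor lists. In the other lists described, unless given below, it lay between 47.6% (heat shock proteins) and 70.6% (GD2 synthesis and surface targets).

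Signalling lists came first. Of 24 immediate early and AP-1 genes, 9 had a more negative and 4 a more positive response in SK-N-BE2. In SK-N-BE2 4 rose and 12 fell, in NGP 8 rose and 7 fell, and 4 were opposite, all of them down in SK-N-BE2 and up in NGP. IER2, another gene of this list, went from 414 ± 82.5 to 129.8 ± 17.1 CPM in SK-N-BE2 and from 92.8 ± 10.6 to 105 ± 24.7 CPM in NGP (SD, n = 3), where it was not called (edgeR adjusted p 0.426). It is uncertain through an overlap of 52.2% with an other-strand gene. Of 16 genes of retinoic acid receptors and metabolism, 5 were opposite. STRA6, the cell surface receptor for vitamin A uptake, moved by -1.11 and 0.24, and DHRS3, which turns retinal back to retinol, fell in both lines (-4.12 and -2.09).

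Of 23 genes of TGF-beta ligands, receptors and SMADs, 10 had the more positive response in NGP and 2 in SK-N-BE2. SMAD3, which carries the signal to the nucleus, measured 1.65, 1.45 and 2.22 CPM with DMSO and 15.8, 14.6 and 16.0 CPM with STM2457 in NGP, and 34.0, 26.2 and 27.9 CPM and 34.8, 36.2 and 33.03 CPM in SK-N-BE2. The NGP groups stood apart and the SK-N-BE2 groups overlapped. LTBP1, which stores the latent ligand in the matrix, moved by -1.45 and 0.69. Of 21 YAP and TEAD targets, the difference was called for 8 (38.1%, against 30.9% of all genes tested). In this list 3 were opposite, among them AJUBA, a LIM scaffold protein (-1.75 and 1.35), and F3, the initiator of clotting (-0.87 and 1.30).

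Notch genes divided. Of 23, 11 fell and 4 rose in NGP, against 5 and 3 in SK-N-BE2, and the called differences were 7 more positive in SK-N-BE2 and 5 in NGP, or 5 and 6 with upper-quartile scaling. MAML2, a coactivator of Notch, was among those more positive in NGP, with changes by 0.28 and 1.86. The line gap became smaller with STM2457 for 12 of the 12 genes called here. Of 13 receptors for neurotrophins, GDNF and ALK ligands, 4 had the more positive response in each line. RET, the signalling receptor of the GDNF family, measured 789, 809 and 765 CPM with DMSO and 402, 413 and 382 CPM under STM2457 in SK-N-BE2, and 69.5, 114 and 91.5 CPM and 193, 190.4 and 187 CPM in NGP. Its groups did not overlap in either line. NTRK2, the receptor of BDNF, moved by -2.72 in NGP, from 34.8 ± 8.73 to 5.29 ± 0.865 CPM (SD, n = 3), and stayed below 1 CPM in SK-N-BE2.

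Matrix and immune lists leaned toward NGP. Among 27 collagens 12 had the more positive response in NGP and 2 in SK-N-BE2, with a median log2 change of -0.39 for SK-N-BE2 and 0.32 for NGP. COL3A1, a fibrillar collagen, measured 29.4, 21.5 and 29.8 CPM with DMSO and 59.6, 55.6 and 63.5 CPM under STM2457 in SK-N-BE2. The NGP libraries held 8.26, 6.83 and 8.77 CPM and 233, 156 and 196 CPM, so it rose in both lines and by more in NGP. COL5A2 moved by -1.12 in SK-N-BE2 and 1.11 in NGP. As given above, the fibroblast marker sum was higher with STM2457 in both lines beside these genes. That sum itself includes the collagen genes COL1A1 and COL1A2, so it is not a separate reading of fibroblast content.

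Of 27 interferon and nucleic acid sensing genes, 10 had the more positive response in NGP and 0 in SK-N-BE2 (also 0 by edgeR at an unadjusted p under 0.05 and by DESeq2). The share called was 37.0%, against 30.9% of all genes tested. In NGP 15 rose and 1 fell, and in SK-N-BE2 3 rose and 6 fell. BST2, an antiviral membrane tether, measured 4.23, 5.52 and 5.35 CPM with DMSO and 2.18, 1.66 and 2.00 CPM under STM2457 in SK-N-BE2, and 1.57, 1.21 and 1.19 CPM and 3.52, 3.74 and 3.67 CPM in NGP. The difference was -2.83 (SE 0.28, edgeR adjusted p 6.06e-06). Of 20 genes of MHC class I antigen presentation, 9 had the more positive response in NGP and 1 in SK-N-BE2. CALR, a chaperone of the peptide loading complex, moved by -0.05 in SK-N-BE2 (edgeR adjusted p 0.737) and 1.06 in NGP, and PSME1, an activator of the proteasome, by -0.40 and 0.83. CALR also counts in the list of ER chaperones below. NLRC5, which switches on MHC class I genes, rose in both lines, by 0.61 and 2.38.

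The integrated stress response differed in size and not in sign. Of 30 ATF4 and CHOP targets, genes of this response, 30 fell in SK-N-BE2 and 29 in NGP, with medians of -2.69 and -1.76. In 17 the response was more negative in SK-N-BE2, in 1 more negative in NGP, and 0 were opposite (also 0 by edgeR at an unadjusted p under 0.05 and by DESeq2). CHAC1, whose promoter is shown above, measured 341, 435 and 424 CPM with DMSO and 7.68, 6.76 and 6.66 CPM under STM2457 in SK-N-BE2. In NGP it measured 93.9, 74.6 and 80.9 CPM and 10.0, 11.02 and 8.74 CPM. The treated groups of the lines differed by -0.50 on the log2 scale and the controls by 2.27. The list as a whole did not narrow in this way. The gap narrowed for 8 and widened for 10 of its 18 called genes. Its median absolute gap was 0.456 with DMSO and 0.455 with STM2457. SLC7A11, the cystine importer, moved by -4.79 and -2.59, and STC2, a secreted stress glycoprotein, by -4.22 and -2.26.

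ER chaperones and genes of the unfolded protein response split in sign. Of 22, 18 fell and 1 rose in SK-N-BE2, while 10 fell and 8 rose in NGP, and 5 were opposite, all down in SK-N-BE2 and up in NGP. HSPA5, the main ER chaperone (BiP), measured 814, 1055 and 828 CPM with DMSO and 457, 479 and 478 CPM under STM2457 in SK-N-BE2, and 408, 402 and 367 CPM and 462, 471 and 497 CPM in NGP. Treated libraries of the 2 lines overlapped, and the controls did not. CRELD2, an ER disulphide isomerase, moved by -1.07 and 0.49, and DNAJB9, a co-chaperone of HSPA5, by -2.15 and -1.14. Of 21 heat shock proteins, 7 had the more positive response in NGP and 3 in SK-N-BE2. BAG3, a co-chaperone of selective autophagy, moved by -0.46 and 2.02 and HSPA4L by 1.25 and -0.74.

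Of 24 NRF2 antioxidant genes, 14 had the more positive response in NGP and 0 in SK-N-BE2 (0 by edgeR at an unadjusted p under 0.05 and by DESeq2 as well). In NGP 17 rose and 2 fell, and in SK-N-BE2 6 rose and 5 fell. Among the 14 was SLC7A11, which is also in the ATF4 and CHOP list and fell in both lines (-4.79 and -2.59). HMOX1, which degrades haem, measured 9.46, 10.4 and 10.1 CPM with DMSO and 4.28, 2.87 and 3.69 CPM under STM2457 in SK-N-BE2, and 1.55, 0.646 and 0.778 CPM and 3.33, 3.59 and 3.29 CPM in NGP. The treated groups of the 2 lines overlapped, with a log2 gap of 0.09 against 3.33 between the controls. NQO1, a quinone reductase, moved by 0.11 (edgeR adjusted p 0.522) and 2.49, and a gene on the other strand overlaps 19.4% of its exons. Of 28 glycolysis genes, 10 had the more positive response in NGP and 4 in SK-N-BE2, with 17 up and 4 down in NGP and 7 up and 6 down in SK-N-BE2. LDHA, lactate dehydrogenase, moved by -0.56 and 1.31 and has near-identical copies in the genome, whose effect on its counts was not measured. PDK1, which restrains pyruvate oxidation, went the other way, by 0.04 and -1.11.

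**Figure D3:**
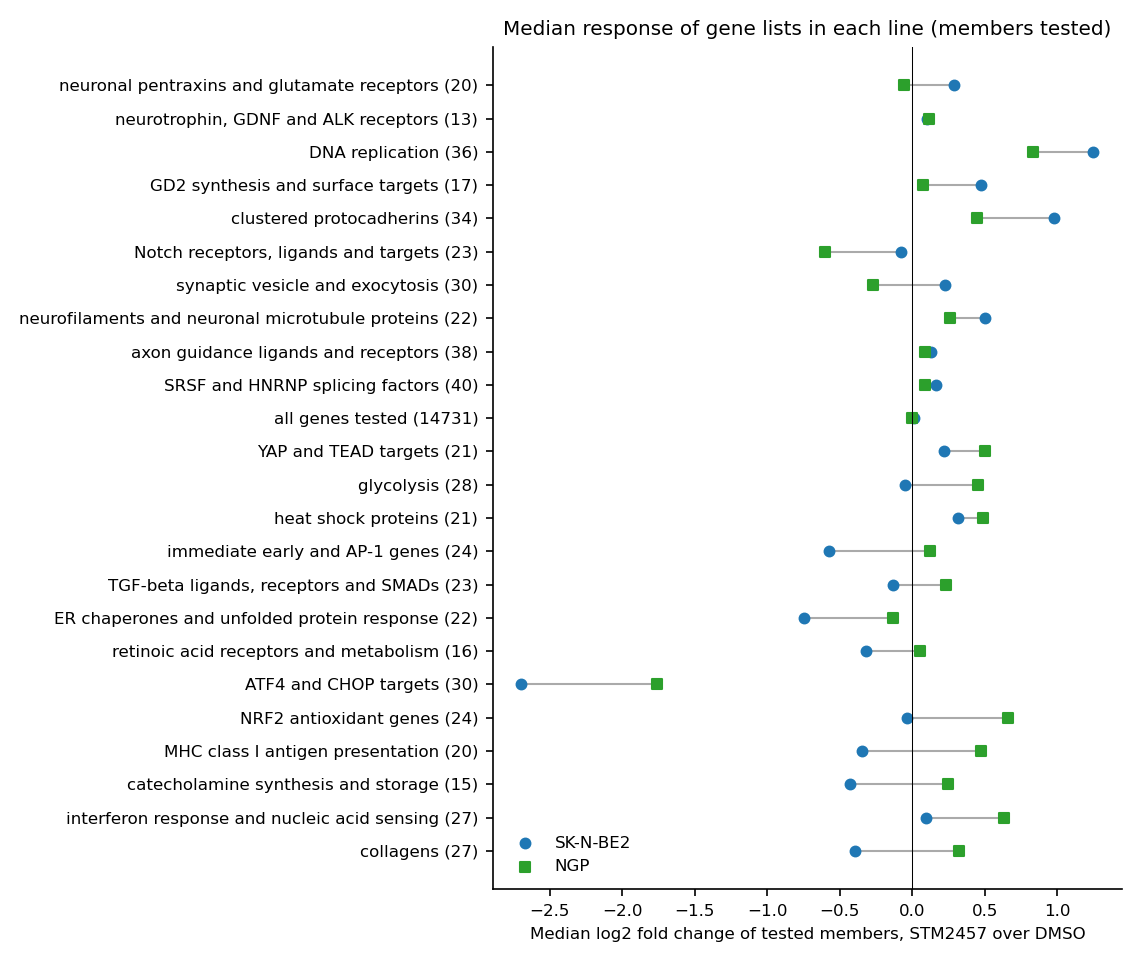
Median log2 fold change with STM2457 in SK-N-BE2 (circles) and NGP (squares) for the 23 lists described, with the number of members tested in parentheses and all genes tested for reference. The ATF4 and CHOP list was lowest in both lines (-2.69 and -1.76), and the medians of collagens, catecholamine genes and MHC class I genes lay below 0 in SK-N-BE2 and above 0 in NGP.

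Neuronal lists did not all lean toward the same line. Of 17 granins and neuropeptides, 1 responded more positively in SK-N-BE2 and 4 did so in NGP, and of 20 adrenergic transcription factors 4 and 3 did. The shares called in these lists, 29.4% and 35.0%, were near the 30.9% of all genes tested. Of 15 genes of catecholamine synthesis and storage, 6 had the more positive response in NGP and 0 in SK-N-BE2 (again 0 by edgeR at an unadjusted p under 0.05 and by DESeq2). CYB561, an electron carrier of the storage vesicle, measured 207, 203 and 195 CPM with DMSO and 137, 138 and 131 CPM under STM2457 in SK-N-BE2, and 0.635, 0.743 and 0.642 CPM and 2.88, 3.89 and 2.56 CPM in NGP. DDC, which makes dopamine, moved by -0.04 (edgeR adjusted p 0.782) and 1.21, and DBH, which makes noradrenaline, by -1.39 and -0.31 (edgeR adjusted p 0.0511 in NGP). The adrenergic marker sum, which includes DBH, was between 3037 and 4026 CPM with DMSO and between 2433 and 2650 CPM under STM2457 in SK-N-BE2. In NGP the sums of the treatments overlapped.

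Of 30 synaptic vesicle and exocytosis genes, 12 responded more positively in SK-N-BE2 and 4 in NGP. In SK-N-BE2 9 rose and 4 fell, and in NGP 5 rose and 11 fell. SV2C, a vesicle glycoprotein, measured 25.6, 20.0 and 18.8 CPM with DMSO and 42.4, 44.8 and 38.8 CPM under STM2457 in SK-N-BE2. The NGP libraries held 46.2, 85.5 and 68.4 CPM and 4.44, 5.16 and 5.44 CPM. The higher line was NGP under DMSO and SK-N-BE2 under STM2457. SYT5, a calcium sensor of release, fell in both (-1.31 and -4.26). Of 35 voltage-gated ion channels, 11 responded more positively in SK-N-BE2 and 3 in NGP, with 11 up and 7 down in SK-N-BE2 and 5 up and 15 down in NGP. Of 20 neuronal pentraxins and glutamate receptors, 6 responded more positively in SK-N-BE2 and 0 in NGP (1 by edgeR at an unadjusted p under 0.05 and 1 by DESeq2). The share called was 30.0%, against 30.9% of all genes tested. Among the 6 were the kainate receptor subunits GRIK3 (0.43 and -0.59) and GRIK5 (-0.16 and -0.98).

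Of 22 neurofilaments and neuronal microtubule proteins, 9 responded more positively in SK-N-BE2, 3 did so in NGP, and 5 were opposite. MAPT, which encodes tau, moved by 0.30 (edgeR adjusted p 0.091) and -1.94, and MAP2, its dendritic relative, by 0.84 and -0.55. Axon guidance genes differed in both directions, 13 more positive in SK-N-BE2 and 11 in NGP of 38, with 7 opposite. PLXNA4, a semaphorin receptor, rose in both lines, by 1.55 and 3.63, and SLIT1, a repellent ligand, moved by -0.39 (edgeR adjusted p 0.0883) and -2.51. Of 34 clustered protocadherins, adhesion proteins that mark single neurons, 21 rose in SK-N-BE2 and 11 in NGP, with 0 called lower in either line (0 by edgeR at an unadjusted p under 0.05 and 0 by DESeq2). The difference was called for 8 (23.5%, against 30.9% of all genes tested), of which PCDHB14 moved by 1.92 and 0.30. Exons shared between genes of these clusters make values of single members uncertain.

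Of 17 genes of GD2 synthesis and surface targets of neuroblastoma therapy, 9 responded more positively in SK-N-BE2 and 3 in NGP. CD24, a surface glycoprotein, measured 93.0, 99.6 and 85.4 CPM with DMSO and 253, 261 and 244 CPM under STM2457 in SK-N-BE2. In NGP it measured 421, 373 and 417 CPM and 501, 476 and 498 CPM, a smaller rise from a higher level. ST3GAL5, which makes the precursor of gangliosides, moved by 0.92 and -0.18 (edgeR adjusted p 0.186 in NGP). B4GALNT1, the GD2 and GM2 synthase, moved by 1.79 and 0.69, with an other-strand overlap of 27.1%.

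DNA replication genes rose in both lines and by more in SK-N-BE2. Of 36, 35 rose in SK-N-BE2 and 27 rose and 2 fell in NGP, with medians of 1.25 and 0.83, and the difference was called for 21, all more positive in SK-N-BE2. More positive in NGP were 0 of this list by edgeR (3 at an unadjusted p under 0.05) and 1 by DESeq2. POLE2, a subunit of the leading-strand polymerase, measured 5.30, 4.53 and 5.28 CPM with DMSO and 17.99, 20.5 and 17.6 CPM under STM2457 in SK-N-BE2, and 22.8, 15.5 and 17.1 CPM and 21.1, 21.4 and 20.4 CPM in NGP. The treated SK-N-BE2 libraries reached the NGP range, where the groups overlapped. GINS1 and MCM10, parts of the replicative helicase assembly, rose by 1.63 and 1.62 in SK-N-BE2 and by 0.29 and 0.55 in NGP. The line gap narrowed for 20 of the 21. With upper-quartile scaling the called differences of this list were 18 more positive in SK-N-BE2 and 2 in NGP.

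Splicing factors of the SRSF and HNRNP families and their relatives were even, 8 more positive in each line of 40, with 4 opposite. CELF2, an RNA-binding regulator of splicing, moved by 1.95 and -0.45, and SRSF4 by -0.13 (edgeR adjusted p 0.354) and 0.89. Differences were called for 4 of 39 ribosomal proteins (10.3%) and 3 of 38 mitochondrial ribosomal proteins (7.89%). The shares were nearer to that of all genes in aminoacyl-tRNA synthetases (5 of 20), mitosis genes (8 of 30, 26.7%) and the m6A machinery (5 of 19, 26.3%). METTL3 itself rose in both lines, by 0.56 in SK-N-BE2 and 0.94 in NGP, with a difference of -0.39 (SE 0.12, edgeR adjusted p 0.0279) that lost its call without any of 7 single libraries (adjusted p up to 0.0771). MYCN had a difference of -0.08 (SE 0.14, edgeR adjusted p 0.711).

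Whether STM2457 brought the lines closer was read from the gap between them. With DMSO 10480 genes differed between SK-N-BE2 and NGP (71.1% called), 5262 higher in SK-N-BE2 (35.7%) and 5218 lower (35.4%). With STM2457 9714 did (65.9% called), 4933 higher (33.5%) and 4781 lower (32.5%). The median absolute log2 gap over all genes tested was 0.722 with DMSO and 0.639 with STM2457. Genes with a gap of at least 1 numbered 5783 and 5236. Over all 14731 genes tested, the gap was smaller with STM2457 for 8310 (56.4%). Among the 4549 genes with a called difference in response, the gap narrowed for 2755 (60.6%) and widened for 1794. For 448 of these genes the gap was called in both treatments with opposite sign, for 1176 with DMSO alone and for 769 with STM2457 alone.

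Between single libraries of the 2 lines, the root mean square difference in log2 CPM ran from 2.13 to 2.17 over the 9 pairs with DMSO. Over the 9 pairs with STM2457 it ran from 2.005 to 2.022, so the ranges did not overlap, although pairs share libraries and were not tested. The ratio of the means was 0.937. For scale, replicates of a group lay 0.395 to 0.625 apart, and DMSO and STM2457 libraries lay 0.809 to 0.897 apart in SK-N-BE2 and 0.896 to 1.01 apart in NGP. The lines therefore remained much further from each other than each moved under the drug. Restricted to genes averaging 10 CPM or more, the ratio was 0.956.

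**Figure D4:**
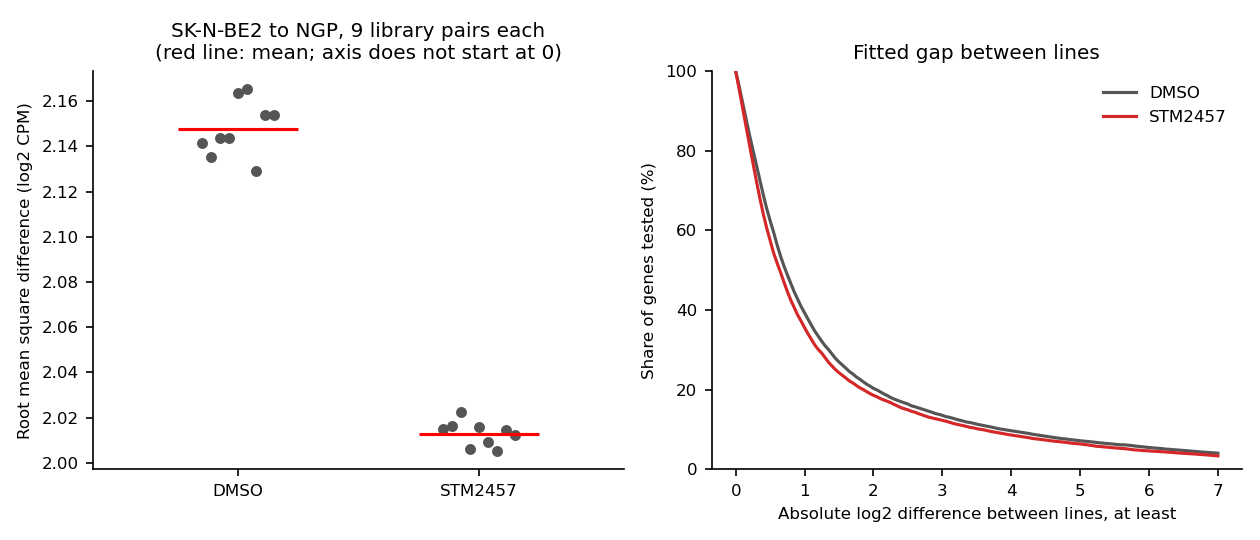
Left, root mean square difference in log2 CPM between each SK-N-BE2 and each NGP library for the 9 pairs within DMSO and the 9 within STM2457, with the mean as a red line and an axis that does not start at 0; right, share of genes tested whose absolute log2 gap between lines is at least the value on the x axis. All STM2457 pairs lie below all DMSO pairs, at a ratio of means of 0.937, and the STM2457 curve lies under the DMSO curve.

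Genes named for the size of their narrowing were, apart from NPTX1, at 0 reads in NGP with DMSO. Fitted gaps against a group at 0 reads depend on the prior count, so no order is read from them. Where both lines had reads, the log2 gap of EGR1 went from 5.77 to 0.70, that of FOS from 5.18 to -0.36 and that of VIP from 8.08 to 2.15. IFI16 and DNAH14 are described above, and MGP, an inhibitor of calcification, had 0 reads in NGP with DMSO and 46 with STM2457, at least 16.3-fold higher. IL13RA2, a decoy receptor of interleukin 13, had 0 and 18 (at least 6.36-fold higher), beside 264, 305 and 258 CPM with DMSO and 171, 173 and 189 CPM under STM2457 in SK-N-BE2. GADD45B, a growth arrest gene, had 0 and 4 reads in NGP and fell in SK-N-BE2 from 10.98, 10.9 and 15.4 CPM to 1.66, 1.17 and 2.34 CPM. Leaving out either replicate 1 or replicate 3 of NGP STM2457 took away its call (adjusted p up to 0.0724). Genes named for widening were higher in SK-N-BE2 under STM2457. ZDHHC2, a palmitoyl transferase, measured 83.0, 68.7 and 68.7 CPM with DMSO and 94.996, 93.0 and 91.9 CPM under STM2457 in SK-N-BE2, and 2.94, 3.80 and 3.58 CPM and 0.214, 0.385 and 0.158 CPM in NGP. PAPPA2, a protease that frees insulin-like growth factors, fell in NGP from 126 reads to 3, 39.6 times fewer, where the 95% interval runs from 13.3 to 195 and covers counting error only. Of 50 lists with at least 8 members tested, the median absolute gap was smaller with STM2457 in 36 and larger in 14. For the 24 immediate early genes it went from 2.16 to 0.67 and for the 27 interferon genes from 1.80 to 1.00, whereas for the 27 collagens it went from 1.38 to 1.70 and for the 23 TGF-beta genes from 0.66 to 1.02.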

How the data were processed

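RNA-seq of polyadenylated RNA was assigned to groups from the sample titles. The authors counted reads on exons by gene name with featureCounts 2.0.5, using protein-coding genes of GENCODE 33, with no strand option, per the file headers, and the deposited values are whole-number counts for 19923 genes per library. The submitters' processing notes list FastQC 0.11.5, Trimmomatic 0.36, HISAT2 2.1.0, Subread 1.5.3 and GRCh38. Pairs were not counted as 1, so a fragment can add 2 to a count, and counting intervals, which cover counting error only, are too narrow and lower bounds too high. The headers name 1 run for each line.

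Group means of all 12 libraries (4 groups) were fitted in edgeR 4.0.16 under R 4.3.3. Low genes were removed by filterByExpr at a count of 10, TMM factors set the scale, and the quasi-likelihood test was used with Benjamini-Hochberg adjustment over 14731 genes at 0.05. Responses, their difference and line gaps are contrasts of this fit. Standard errors come from the log2 change and its F statistic. Distances used log2 CPM with a prior count of 2. The code was also run on counts simulated with the spread estimated by this fit, which cannot show how well its p-values suit these data.

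The comparison, 53 lists (1306 symbols, 4 not matched) and rules were chosen with earlier results of these data known. METTL3 and MYCN were named always. Others were named by size among genes called for the difference, with at least 10 CPM in a group and no overlap of libraries in a responding line: 8 opposite genes per orientation, 6 for each line alone, 6 narrowing and 6 widening. The group with at least 10 CPM could be in either line, also the one without a called response. Lists were described if among the 6 highest or 6 lowest median differences with at least 8 members tested, or with at least 3 opposite members, with up to 4 members each (at least 5 CPM). Genes whose exons overlap others by over 10% in GENCODE 44 are called uncertain. A gene with 0 reads in a group has a lower bound against a floor of 3 reads summed over the group. Promoters are from RefSeq. Alternatives were other scalings, filters, dispersion, DESeq2 1.42.0, a fold minimum, a replicate block, fits per line and leaving out each library. Depth of 47242379 to 58159937 reads makes counting error small except for genes of few reads. Some genes of the naming rule are not reported here.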

Additional observations from a re-analysis of the deposited data

Results flagged for a closer look

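A difference between the lines in their response to the same drug was called for 4549 genes by edgeR, and 721 of them were called in opposite directions. Named genes other than METTL3 and MYCN were chosen for having a called difference, so their calls are not a separate result. Those listed here were in turn chosen from genes called in opposite directions with no overlap between treated and control libraries in either line.

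STM2457 raised these in SK-N-BE2 and lowered them in NGP: NPTX1, with a log2 difference in response of 9.36, NWD2 with 5.81, SH2D3C with 4.58, STMN4 with 4.06, GAD1 with 4.05, CREB5 with 3.93, NTNG1 with 2.93 and OLFM2 with 2.86. Lower in SK-N-BE2 and higher in NGP were VIP, with a log2 difference of -5.92, FOS with -5.54, EGR1 with -5.07, CRABP2 with -3.72, ZFP36 with -3.40, HES1 with -2.68, TXNIP with -2.64 and RHOF with -2.29. The values of VIP and RHOF are uncertain through overlapping genes. The size for NWD2 is uncertain too, since it rests on 8 reads over the SK-N-BE2 DMSO group and 96 with STM2457. Dose and sequencing run differed with the line and cannot be told apart from it.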

How the results depend on the processing

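A minimum absolute log2 change of 1 lowered the genes called for the difference to 1930, opposite genes to 90, SK-N-BE2-only genes to 520, NGP-only genes to 773 and narrowed gaps to 1145, with 785 widened. Leaving out 1 library at a time gave 3701 to 6274 called, 530 to 1145 opposite, 1069 to 1854 SK-N-BE2-only, 1320 to 2004 NGP-only and 2245 to 3889 narrowed gaps. The highest of each came without NGP DMSO replicate 1. The share of narrowed gaps among called genes stayed between 59.7% and 62.0%, beside 56.4% of all genes tested in the main fit. The ratio of line distances stayed between 0.932 and 0.938. With a mean of at least 10 CPM that ratio was 0.956 (1.65 with DMSO and 1.57 with STM2457). Other scalings, filters, dispersion and DESeq2 kept each of these counts within 1.5 times. DESeq2 called 833 opposite genes, of which 715 were among the 721, and fits per line 643, of which 540 were. The fits per line also gave 1669 SK-N-BE2-only and 1336 NGP-only genes, which turned the order of these classes.

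Replicate numbers did not pair the samples: deviations of same-numbered libraries correlated at -0.058, 0.088 and 0.031 in SK-N-BE2 and at 0.015, -0.074 and 0.022 in NGP. With the replicate block 611 genes were opposite. Among 116 named genes the block lost the calls of DLL4 (adjusted p 0.132) and METTL3 (0.0649). Without filter METTL3 was lost (0.0576), with upper-quartile factors DLL4 (0.0512), and with DESeq2 DLL4 (0.142) and SHROOM4 (0.0518). Leaving out a library lost calls of DLL4, METTL3, SHROOM4, RIMS1, HES4, GADD45B and HLA-C, and the DLL4 difference ran from -2.66, without SK-N-BE2 STM2457 replicate 2, to 3.52, without SK-N-BE2 STM2457 replicate 1. DLL4 measured 0, 0.352 and 0 CPM in the SK-N-BE2 STM2457 libraries, so all 18 reads of that group lay in replicate 2. For the other genes the cause of a lost call was not tested. Upper-quartile scaling turned the balance of called differences (2176 more positive for SK-N-BE2, 2458 for NGP) and of opposite genes (343 and 381), and changed the split of the Notch list to 5 and 6. No scaling changed the sign of a median of the 23 lists described. With genes at 0 reads set to their bounds, no such median changed sign, and the largest move of a median difference was 0.24, for the retinoic acid list. Genes at 0 reads in a group were set at a floor of 3 reads, which is too low where both reads of a pair were counted.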

Other observations

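Under TMM scaling, the direction of the called differences went with gene length and level. Among the shortest of 5 equal groups of genes by exon length, up to 2889 bases, 43.7% of called differences were more positive in SK-N-BE2, and among the longest group, from 8414 bases, 63.1% were. By mean level the share was 44.7% in the lowest group, up to 2.46 CPM, and 60.6% in the highest. The part of length and level in the differences was not tested. Cholesterol synthesis genes, a list outside those described, rose in both lines, 22 of 25 in SK-N-BE2 and 17 of 25 in NGP. The difference was called for 10 of them (40.0%, against 30.9% of all genes tested), 9 more positive in SK-N-BE2. Of 40 nuclear respiratory chain genes, 11 had a called difference (27.5%, against 30.9% of all genes tested), 10 of them more positive in NGP.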
